A study of Homo sapiens with 6 samples.

Results

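The phosphoglucomutase genes are PGM1, PGM2, PGM2L1, PGM3 and PGM5, a family of enzymes and enzyme-like proteins built on 1 fold. They were found on the arrays by gene symbol, and all 7 probes carrying these symbols were used, out of 22967 probes with a symbol for 19771 genes. PGM5 was chosen by its measured difference between the groups described here, so its values are given as a description, without a test. PGM1, PGM2, PGM2L1 and PGM3 were included by name as the rest of the family.

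The cells were MDA-MB-231, an established triple-negative human breast cancer line, carrying a stably integrated lentiviral vector. MB-231-control cells expressed ZsGreen, a green fluorescent protein, and MB-231-maspin cells expressed maspin, the serine protease inhibitor encoded by SERPINB5, joined to ZsGreen through a P2A peptide. Each line was a drug-selected pool of transduced cells, with the transgene under a CMV promoter. Total RNA of 3 samples per line was hybridized to one-colour oligonucleotide arrays, and the comparison asks which transcripts differ in the cells made to overexpress maspin. No source states that the 3 samples of a line came from separate cultures, so p-values reflect only how these arrays vary, which may be technical. The values are normalized intensities on a scale where the median probe of each array is 25, and differences are log2 of maspin over control.

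Phosphoglucomutases move a phosphate group between positions of a sugar. PGM1 interconverts glucose-1-phosphate, the sugar unit of glycogen, and glucose-6-phosphate, which enters glycolysis and the pentose phosphate pathway. PGM2 acts on ribose-1-phosphate and deoxyribose-1-phosphate, and PGM2L1 makes glucose-1,6-bisphosphate, the cofactor that the mutases need. PGM3 converts N-acetylglucosamine-6-phosphate to N-acetylglucosamine-1-phosphate on the way to UDP-GlcNAc, the donor for N-glycans, O-GlcNAc and hyaluronan. PGM5, also called aciculin, lacks this enzyme activity and is known from muscle as a protein of cell adhesion sites, where it binds dystrophin, utrophin, filamin C and the Xin proteins.

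Across the arrays, background was 67.8 to 70.3 scanner units and 87.1% to 91.3% of probes had a value. Control replicate 3 held the lowest value of the 6 arrays for 51.6% of 12762 genes. On that array 6 of the 7 phosphoglucomutase probes had their lowest value, and the exception was PGM5. The SERPINB5 probe read 5.10, 5.61 and 4.11 on the control arrays and 4.20, 2.79 and 4.40 on the maspin-labelled arrays. It was not brighter on the latter. The brightest negative control spot read 3.76, 9.35 and 3.22 on the control arrays and 3.27, 2.58 and 3.44 on the maspin-labelled arrays. The SERPINB5 probe was thus dim, and on control replicate 2 it lay below that spot. Where this probe lies relative to the vector's cDNA is not given in the sources used here, and the groups are therefore called by their labels throughout. According to the paper, MB-231-maspin cells exceeded MB-231-control cells in maspin transcript (RT-qPCR) and in maspin protein (western blot). Those measurements were not analysed here. All 8 markers fixed for a mesenchymal breast cancer line, among them VIM, CAV1 and AXL, were above the brightest negative control spot on all 6 arrays. Of the luminal and epithelial markers, ESR1 was blank on all 6 arrays and PGR was never above that spot. EPCAM (mean 103 on the control arrays and 102 on the others), CDH1, KRT19, ERBB2, GATA3 and FOXA1 were above that spot on all 6.

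PGM5 (Entrez Gene 5239; GRCh38.p14, chromosome 9, 68356611 to 68531061) had normalized intensities of 2.06, 2.28 and 3.18 on the MB-231-control arrays. On the maspin-labelled arrays it read 11.7, 11.2 and 11.0. Every maspin-labelled array was above every control array, as for 13.8% of 12762 genes. The SD was 23.7% of the mean on the control arrays and 3.18% on the maspin-labelled arrays. The means were 2.51 ± 0.595 (SD, n = 3) and 11.3 ± 0.358 (SD, n = 3), a log2 difference of 2.19 or 4.57-fold. Among all genes tested this difference stood at percentile 99.96. PGM5 was selected on this same contrast, so its rank is no test. In RNA from whole cultures, more cells with PGM5 transcript and more transcript per cell cannot be told apart.

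**Figure D1:**
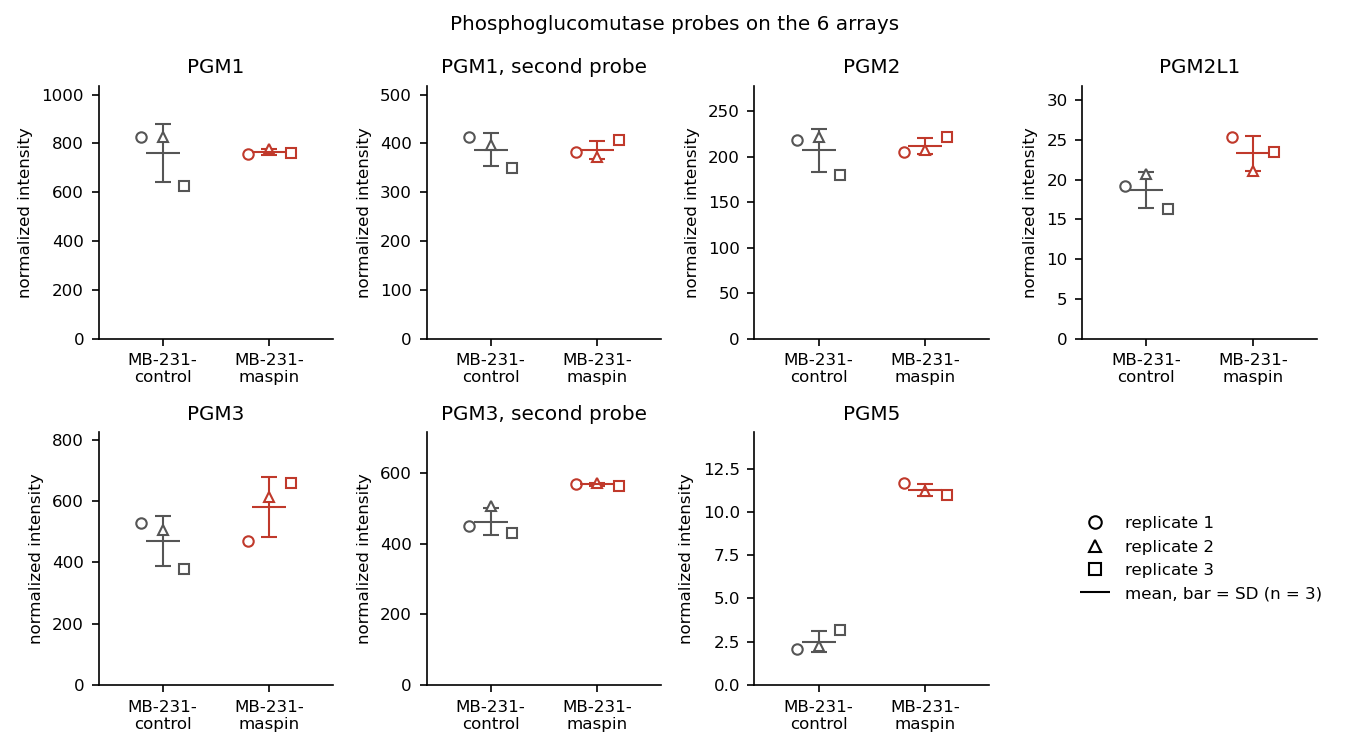
Normalized intensity (array median 25) of each of the 7 phosphoglucomutase probes on the 3 MB-231-control and the 3 MB-231-maspin arrays; symbols mark the replicate, horizontal lines the mean and bars the SD (n = 3). Each panel has its own axis from 0, and PGM5 is the panel in which the groups lie farthest apart, at 2.06 to 3.18 and 11.0 to 11.7.

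PGM5 was a dim spot in MB-231-control cells. Its raw signal was 73.2, 73.4 and 76.2 scanner units on the control arrays, which is 4.02, 4.55 and 6.44 units above the background that was subtracted. On the maspin-labelled arrays the raw signal was 94.9, 98.0 and 87.3, or 25.9, 27.7 and 19.5 units above background. Of the 96 negative control spots of each array, 13, 11 and 1 were brighter than PGM5 on the control arrays and 0 on each of the others. The control level of PGM5 thus lay inside the range of spots that should bind nothing, and the level on the other arrays lay above all of them. Within each array's own probes, PGM5 stood at percentile 15.9, 16.3 and 22.2 on the control arrays and at 40.2, 40.9 and 40.1 on the others.

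**Figure D2:**
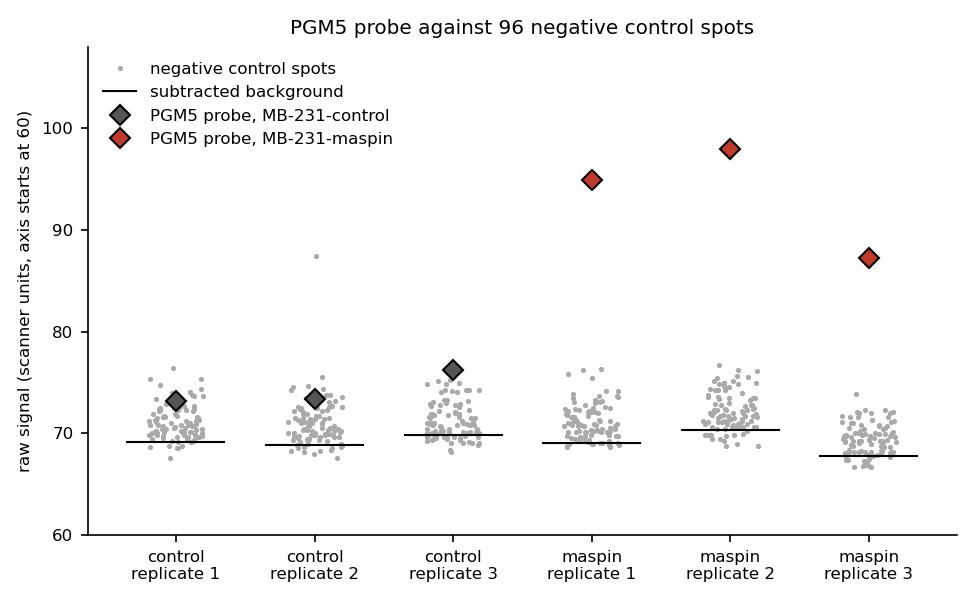
Raw signal in scanner units (axis from 60) of the PGM5 probe (diamonds) on each array, with the 96 negative control spots of that array (grey points) and the subtracted background (black line). On the 3 control arrays PGM5 lies among the negative control spots, and on the 3 maspin-labelled arrays it lies above all of them.

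The size of the PGM5 difference therefore turned on the dim group. With control values raised to the 95th percentile of the negative control spots, which lifted 2 of the 3 control arrays, the log2 difference was 2.00. With a floor at the brightest negative control spot, which all 3 control arrays fell under, it was 1.22, or 2.33-fold. That floor was 3.76, 9.35 and 3.22 on the control arrays, and only control values were raised to it. The 9.35 on control replicate 2 came from a single spot with a raw signal of 87.5, while the next brightest there read 75.6. Moving the subtracted background down by 2 scanner units gave 1.81 and moving it up by 2 gave 2.86. PGM5 passed the filter used here, a mean above 10 in either group, only through the maspin-labelled group. Of the 12767 genes tested, 148 passed in that way, and PGM5 was just inside the limit with its mean of 11.3.

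RefSeq lists 3 PGM5 pseudogenes and 3 antisense genes of PGM5 or its pseudogenes, and 0 of these 6 had a probe. Whether their transcripts bind the PGM5 probe could not be checked with these arrays. The gene nearest to PGM5 among those with a probe, TMEM252, starts 5.519 kb beyond its end, and read 1.34, 1.10 and 1.76 on the control arrays and 2.14, 1.22 and 1.75 on the others. The 2 groups of TMEM252 overlapped. Both were near background and under the filter, so the gene was not tested. For 3 neighbours bright enough to test, limma's differences are given here, and 0 of the 3 passed, with 1 at an unadjusted p under 0.05. PABIR1, 249 kb beyond the end of PGM5, had a log2 difference of 0.16 (standard error 0.19, adjusted p = 0.766). On the far side of PGM5, FAM74A3, 1379 kb away, had 0.26 (adjusted p = 0.498). PTGER4P2-CDK2AP2P2, 5509 kb away on that side, had -0.27 (adjusted p = 0.300).

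The 4 enzymes of the family had no called difference. At an adjusted p under 0.05 (limma, Benjamini-Hochberg over 12767 genes, two-sided), 0.854% of all genes were called, 0.533% higher and 0.321% lower on the maspin-labelled arrays, and 0 of the 4 enzymes were among them. At an unadjusted p under 0.05 limma had 1 of the 4, PGM2L1, against 9.49% of all genes in that direction and 3.84% in the other. This count takes 1 probe per gene. A second probe of PGM3, described below, had an unadjusted p of 0.00713 in the limma fit of every probe. The gene-wise test of the study's methods, run on the same log2 values as an alternative, had 0 of the 4 both before and after adjustment. The median difference of all genes was 0.04 with an SD of 0.18, and 59.9% of genes lay above 0.

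PGM3 (Entrez Gene 5238; chromosome 6, 83148705 to 83193900) was measured by 2 probes. Its first probe read 529, 505 and 378 on the control arrays and 470, 614 and 659 on the maspin-labelled arrays. The groups overlapped, since maspin replicate 1 lay below 2 of the control arrays. The means were 470 ± 81.1 and 581 ± 98.5 (SD, n = 3 each), and the log2 difference was 0.31 (standard error 0.16, 95% interval -0.07 to 0.68, adjusted p = 0.468). Without control replicate 3 it was 0.15 and without maspin replicate 1 it was 0.45.

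The second PGM3 probe read 450, 505 and 431 on the control arrays and 568, 572 and 564 on the others, with no overlap. Maspin-labelled arrays lay wholly above the control arrays for 13.8% of 12762 genes, so that such a separation was common on these arrays. Its means were 462 ± 38.6 and 568 ± 3.75 (SD, n = 3 each). The log2 difference was 0.30 (standard error 0.08, 95% interval 0.11 to 0.49), close to that of the first probe but with a smaller standard error. It did not pass in the limma fit of every probe (adjusted p = 0.182), where 0.846% of 14305 probes were called. The probes disagreed on single arrays: the ratio of the first to the second ranged from 0.829 on maspin replicate 1 to 1.17 on control replicate 1. Maspin replicate 1, the array that made the first probe's groups overlap, read 568 on the second probe, between the other maspin-labelled arrays.

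PGM2L1 (Entrez Gene 283209; chromosome 11, 74330316 to 74398433) read 19.2, 20.7 and 16.3 on the control arrays and 25.4, 21.0 and 23.5 on the maspin-labelled arrays. It was dimmer than PGM1, PGM2 and PGM3. Within each array's own probes it stood between percentile 47.5 (control replicate 3) and 53.1 (maspin replicate 1). The groups did not overlap, as for 13.8% of all genes with the maspin-labelled arrays higher. The highest control value and the lowest maspin-labelled value were close, at 20.7 and 21.0. The means were 18.7 ± 2.26 and 23.3 ± 2.20 (SD, n = 3 each), and the log2 difference was 0.32 (standard error 0.11, 95% interval 0.06 to 0.58, adjusted p = 0.281). Without control replicate 3 the PGM2L1 difference was 0.22.

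PGM1 (Entrez Gene 5236; chromosome 1, 63593411 to 63660245), the main enzyme of the glucose phosphates, read 827, 828 and 623 on the control arrays and 756, 776 and 761 on the others. The maspin-labelled values lay between the control values, whose spread came from control replicate 3. The means were 759 ± 118 and 764 ± 10.6 (SD, n = 3 each), with a log2 difference of 0.02 (standard error 0.12, 95% interval -0.25 to 0.29, adjusted p = 0.953). Its second probe read 414, 397 and 349 on the control arrays and 383, 371 and 407 on the others. That probe gave means of 387 ± 33.9 and 387 ± 18.0 and a 95% interval of -0.21 to 0.21 (adjusted p = 0.992). A change of PGM1 by more than 1.23-fold in either direction lay outside the interval of the first probe.

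PGM2 (Entrez Gene 55276; chromosome 4, 37826686 to 37862937), the pentose mutase, read 219, 222 and 180 on the control arrays and 205, 208 and 222 on the others. The groups overlapped, and control replicate 3 was again the lowest. The means were 207 ± 23.5 and 212 ± 9.12 (SD, n = 3 each), and the log2 difference was 0.04 (standard error 0.10, 95% interval -0.19 to 0.27, adjusted p = 0.906). The sign of these small differences was not fixed: without control replicate 3 they were -0.11 for PGM1 and -0.06 for PGM2, while the median of all genes moved to -0.03.

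**Figure D3:**
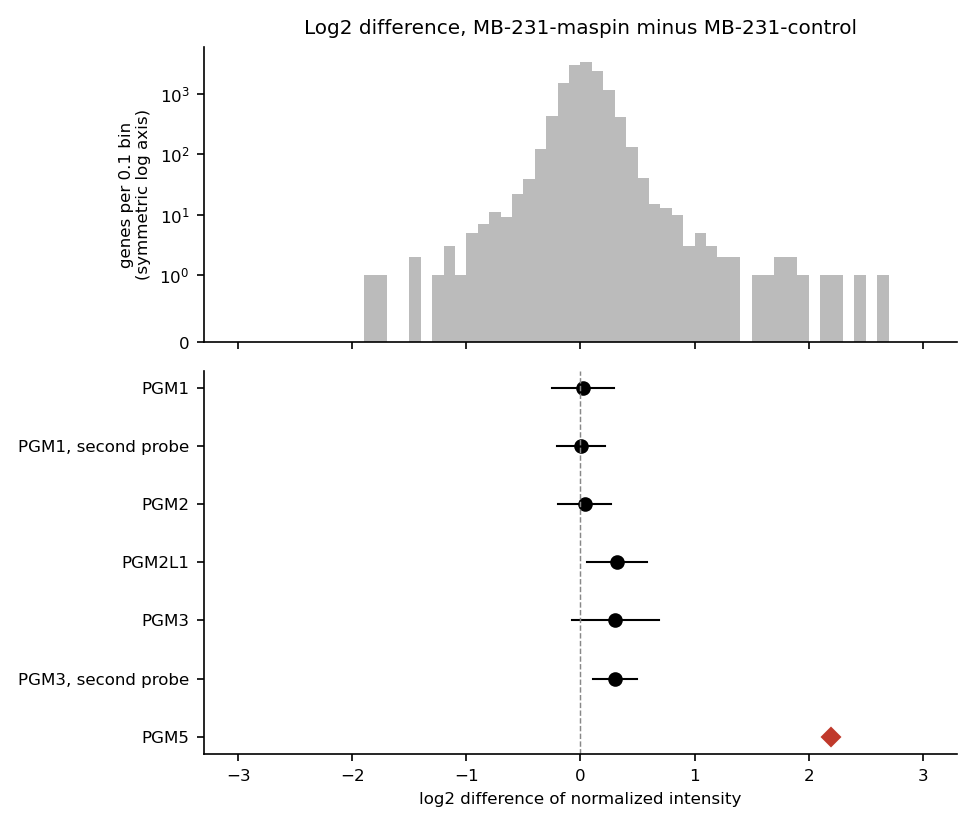
Upper panel, number of genes tested in each 0.1-wide bin of the log2 difference (maspin minus control; symmetric log axis). Lower panel, the log2 difference of each phosphoglucomutase probe on the same axis, with its 95% interval from limma; PGM5 (red diamond, 2.19) was selected on this contrast and has no interval, and the other probes lie between 0.003 and 0.32.

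The enzymes and partners around the family were read from 7 lists: glycogen and UDP-glucose, glucose-6-phosphate and glycolysis entry, hexosamine and UDP-GlcNAc, pentose phosphate, phosphomannose, PGM5 partners with other adhesion site proteins, and smooth muscle genes. Of their 140 genes with a probe, 120 were bright enough to test and 0 passed at an adjusted p under 0.05, either by limma or by the gene-wise test of the study's methods. Unadjusted p-values under 0.05 were found by limma for 15 higher and 9 lower genes, and by the methods' test for 24 in all. The limma counts are 12.5% and 7.5% of the 120 genes, beside the 9.49% and 3.84% of all genes given above. The median difference over the 120 genes was 0.04, the same as over all genes to this precision. The smallest adjusted p was 0.0629.

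In the glycogen and UDP-glucose list, where PGM1 supplies or takes up glucose-1-phosphate, 0 of 22 genes passed, and 4 were higher and 1 lower at an unadjusted p under 0.05. The list's median was 0.09. UGP2, which makes UDP-glucose from glucose-1-phosphate, read 674, 797 and 624 on the control arrays and 843, 862 and 868 on the others, a log2 difference of 0.30 (standard error 0.10, adjusted p = 0.249). NHLRC1, the ubiquitin ligase malin that acts on glycogen metabolism, had -0.23 (standard error 0.09, adjusted p = 0.297). In both genes the groups did not overlap, as for 13.8% of all genes with the maspin-labelled arrays higher and 6.87% with them lower.

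Of the glucose-6-phosphate and glycolysis entry genes, 0 of 19 passed, 0 were higher and 3 lower at an unadjusted p under 0.05, and the median was -0.07. HKDC1, a hexokinase-related protein, read 44.8, 46.8 and 41.9 on the control arrays and 29.3, 29.2 and 34.9 on the others. Its log2 difference of -0.52 (standard error 0.10, adjusted p = 0.0629) was the largest in size among the 120 genes. It passed after quantile normalization (adjusted p = 0.0358), after normexp background correction together with quantile normalization (0.0277) and without control replicate 3 (0.0161). PFKP, the platelet form of phosphofructokinase, had -0.21 (standard error 0.08, adjusted p = 0.324) and passed only after normexp with quantile normalization (adjusted p = 0.0400).

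The hexosamine list holds the steps before and after PGM3, and 0 of its 17 genes passed, with 2 higher and 2 lower at an unadjusted p under 0.05 and a median of 0.04. GFPT2, a form of the enzyme that opens the pathway, read 195, 216 and 183 on the control arrays and 148, 154 and 145 on the others, a log2 difference of -0.41 (standard error 0.09, adjusted p = 0.10). UAP1, which takes the product of PGM3 to UDP-GlcNAc, read 761, 872 and 827 on the control arrays and 1026, 1041 and 1057 on the others, a log2 difference of 0.35 (standard error 0.08, adjusted p = 0.125). The groups of GFPT2 and of UAP1 did not overlap, and neither gene passed. Such a separation held for 6.87% of all genes with the maspin-labelled arrays lower and 13.8% with them higher. Their relatives had the opposite sign: GFPT1, the other enzyme of the first step, had 0.16 (adjusted p = 0.550), and UAP1L1 had -0.17 (adjusted p = 0.613). GFPT2 passed after quantile normalization (adjusted p = 0.0138), after normexp with quantile normalization (0.00274) and without control replicate 3 (0.0302).

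The pentose phosphate and nucleoside list, next to PGM2, had 0 of 14 genes past the test, 2 higher and 1 lower at an unadjusted p under 0.05, and a median of 0.02. PRPS1, which makes phosphoribosyl pyrophosphate from ribose-5-phosphate, had 0.40 (standard error 0.10, adjusted p = 0.150), and passed after normexp with quantile normalization (adjusted p = 0.00763). TYMP, the thymidine phosphorylase that releases deoxyribose-1-phosphate, had -0.34 (standard error 0.08, adjusted p = 0.148). In the phosphomannose list 0 of 11 passed, 1 was higher and 0 lower at an unadjusted p under 0.05, and the median was -0.03. GMDS, which starts GDP-fucose synthesis from GDP-mannose, had 0.34 (standard error 0.13, adjusted p = 0.296), and MPI, the mannose-6-phosphate isomerase, 0.17 (standard error 0.08, adjusted p = 0.385).

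**Figure D4:**
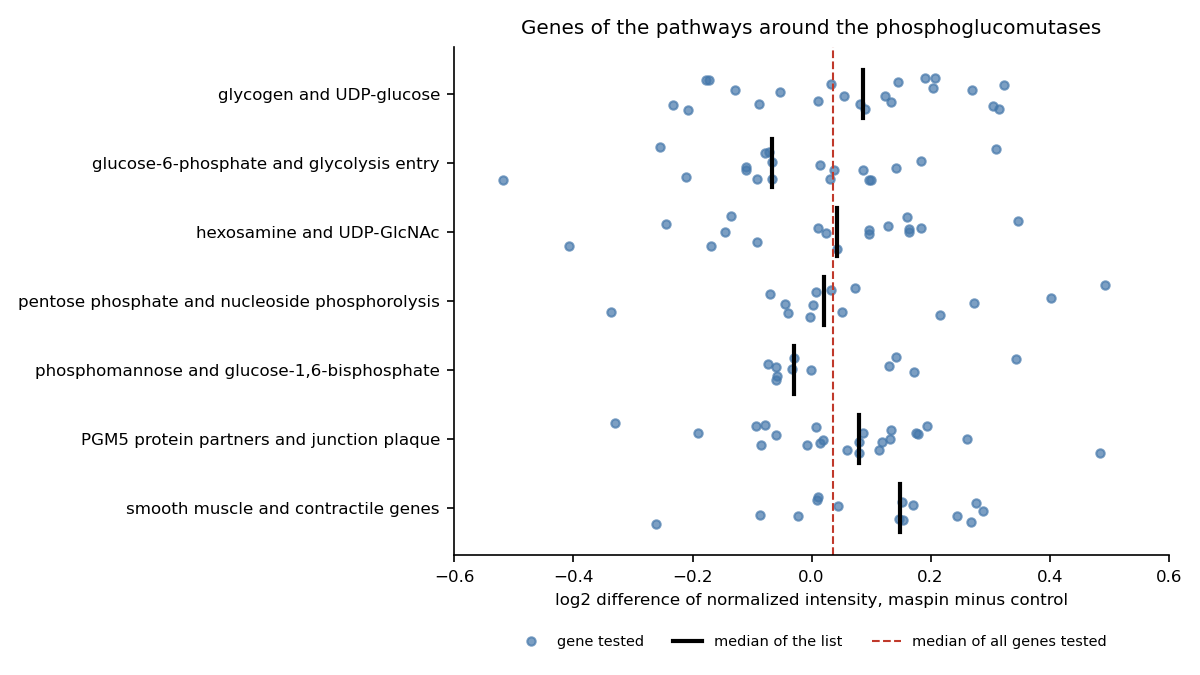
Log2 difference (maspin minus control) of each gene tested in 7 lists around the phosphoglucomutases; points are genes, black bars the median of each list and the dashed line the median of all genes tested (0.04). The points of every list lie on both sides of 0, and the medians run from -0.07 for glycolysis entry to 0.15 for smooth muscle genes.

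In the list of PGM5 partners, the dystrophin complex and other proteins of adhesion sites, 23 genes were tested and 0 passed by limma. Of these, 3 were higher and 1 lower at an unadjusted p under 0.05, and the median was 0.08. UTRN (utrophin) had 0.12 (adjusted p = 0.639) and FLNC (filamin C) -0.08 (adjusted p = 0.728). DMD (dystrophin), XIRP1 and XIRP2 (the Xin proteins) were too dim to test, so that among the partners named above only utrophin and filamin C had a tested value. SGCA, a sarcoglycan of the dystrophin complex, read 44.5, 42.5 and 43.6 on the control arrays and 35.5, 32.8 and 35.8 on the others, a log2 difference of -0.33 (standard error 0.07, adjusted p = 0.123). ACTN1, an actin crosslinker of adhesion sites, read 648, 945 and 591 on the control arrays and 1062, 986 and 948 on the others, a log2 difference of 0.48 (standard error 0.16, adjusted p = 0.259). Control replicate 2 stood apart from the other controls of ACTN1, and without it the difference was 0.69 (adjusted p = 0.0312). That array also held the highest value of all arrays for 38.9% of 12762 genes. Leaving it out moved the median difference of all genes from 0.04 to 0.09, and the called genes from 109 to 219. Of these 219 genes, 184 were higher and 35 lower on the maspin-labelled arrays, so the shift was not particular to ACTN1.

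Since PGM5 is best known from muscle, muscle and other cell type markers were read beside it. Of 14 smooth muscle and contractile genes tested, 0 passed, 3 were higher and 1 lower at an unadjusted p under 0.05, and the median was 0.15. MYLK, the myosin light chain kinase, had 0.27 (standard error 0.09, adjusted p = 0.236) and DES, the muscle filament protein desmin, -0.26 (standard error 0.08, adjusted p = 0.223). The summed intensity of the 20 genes of this list was 1311 to 1613 on the control arrays and 1569 to 1588 on the others. LMOD1, MYOCD and SYNPO2 were blank or below the brightest negative control spot on every array. CNN1, the smooth muscle calponin, was named after its values were seen: it read 1.26, 1.78 and 1.86 on the control arrays and 4.10, 5.19 and 5.02 on the others, and was too dim for the filter. With no filter its log2 difference was 1.56 (adjusted p = 0.0316), and it was above the brightest negative control spot on 3 of the 6 arrays.

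Of the skeletal and cardiac muscle markers, 8 of 16 were tested and 0 passed, with 0 higher and 1 lower at an unadjusted p under 0.05. MYOD1, MYOG, MYF5, TTN and NEB were too dim to test. ACTC1, the cardiac actin, had -0.24 (standard error 0.08, adjusted p = 0.260), and TNNT2, the cardiac troponin T, -0.14 (standard error 0.10, adjusted p = 0.610). The summed intensity was 351 to 418 on the control arrays and 374 to 401 on the others. Its largest part was TNNT1, with means of 220 on the control arrays and 232 on the others. Of 11 leukocyte markers 4 were tested and 0 passed, and PTPRC and CD3E were too dim; CD14 had 0.33 (standard error 0.12, adjusted p = 0.293) and LAPTM5 -0.23 (standard error 0.19, adjusted p = 0.648). Their summed intensity was 353 to 487 on the control arrays and 369 to 394 on the others. Its largest parts were LAPTM5, with means of 245 and 205, and CD79A, with 137 and 129, in the same order. In the 8 mesenchymal markers 0 passed; LOX, a lysyl oxidase, had -0.42 (standard error 0.08, adjusted p = 0.0582), and AXL, a receptor kinase, 0.21 (standard error 0.11, adjusted p = 0.468). LOX passed after quantile normalization (adjusted p = 0.0280), after normexp with quantile normalization (0.0198) and on the log2(value + 10) scale (0.0362). In the 6 luminal markers tested 0 passed; GATA3 had 0.30 (standard error 0.09, adjusted p = 0.189) and KRT19 -0.13 (standard error 0.09, adjusted p = 0.604).

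As a description, genes were ranked by the Pearson correlation of their log2 values with PGM5 over the 6 arrays, among 12762 genes. These 6 points fall into the study's 2 groups and share arrays and scaling, so a high value mostly records a gap between groups that is tight within each. ZFP90 (r = 0.993), MT-CYB (0.991), CCDC186 (0.990), PSG5 (0.989) and TRIM39 (0.989) ranked highest. Their own differences were of very unequal size. PSG5, a pregnancy-specific glycoprotein, read 9.75, 12.0 and 11.6 on the control arrays and 34.9, 33.7 and 35.4 on the others, a log2 difference of 1.65. MT-CYB, the mitochondrial cytochrome b, had 0.10, ZFP90 0.24, CCDC186 0.26 and TRIM39 0.36. With the first probe of PGM3 the ranking was led by UBTD2 (r = 0.996), AKAP1 (0.994), SPRYD4 (0.993), VKORC1L1 (0.991) and GPR19 (0.989). For each of these 5 the lowest value was on control replicate 3, as for PGM3.

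**Figure D5:**
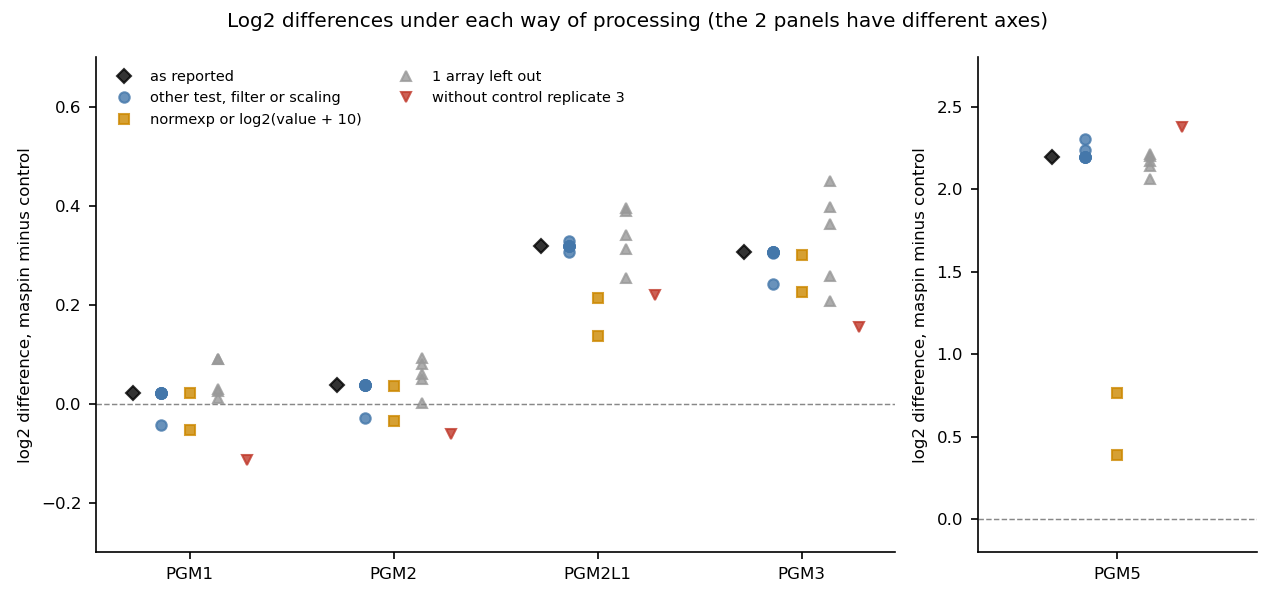
Log2 difference (maspin minus control) of the first probe of each phosphoglucomutase as reported (diamond) and under other tests, filters or scalings and with 1 array left out; the panels have different axes. PGM1 and PGM2 lie on both sides of 0, PGM2L1 and PGM3 stay above 0 between 0.14 and 0.45, and PGM5 falls from 2.19 to 0.77 and 0.39 where a constant is added or normexp with an offset is used before quantile normalization.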

How the data were processed

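Total RNA of 3 MB-231-control and 3 MB-231-maspin samples, grouped by their titles, was amplified, labelled with Cy5 and hybridized to 3D-Gene human mRNA oligo chips. The authors subtracted each array's mean background and scaled the median to 25, and the deposited normalized intensities were used here, with spots near background left blank. The deposited raw intensities served for the background checks and for normexp. The authors also deposited a joint table of score values, the same normalized values rounded to integers, which served as an alternative.

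Log2 values were fitted with limma 3.58.1 (R 4.3.3; group only; prior degrees of freedom 4.02, residual 4), two-sided, with Benjamini-Hochberg adjustment over all 12767 genes. Genes were kept with a mean above 10 in one of the groups and with 2 or more measured arrays in each, and the brightest of a gene's probes was used. Other probes come from a fit of every probe. Members and gene lists were chosen with earlier results of these data known. Named genes were all members, the 2 smallest p-values of each list, the 5 genes most correlated with PGM5 and with PGM3, neighbours of PGM5 on the chromosome (up to 5 on each side) and SERPINB5. Some genes that this rule or the lists take in are not reported here. UTRN, FLNC, CNN1, GFPT1, UAP1L1 and the other genes named as dim, bright or present stand outside this rule. Coordinates are from RefSeq (GRCh38.p14). A floored value was raised to a percentile or the maximum of each array's negative control or blank spots. Precision is limited by 3 arrays per group. The fit was tested on simulated data. Alternatives were the gene-wise Student test of the study's methods, another prior, other filters, scalings, a pseudocount of 10, normexp with an offset of 50, a replicate block and leaving out each array.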

Additional observations from a re-analysis of the deposited data

How the results depend on the processing

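PGM5, whose direction was fixed by its selection, had log2 differences of 0.39 to 2.38 over 15 alternatives, several of which cannot move the estimate. It was 0.39 with normexp and quantile normalization and 0.77 on the log2(value + 10) scale, and both add a constant to dim values by construction. With a floor at the brightest negative control spot, chosen after seeing the data, it was 1.22. On control replicate 2 a single outlying spot set that floor. With 1 array left out it was 2.06 to 2.38, and with only genes above a mean of 50 it was not tested. PGM1, PGM2, PGM2L1 and PGM3 were called in 0 alternatives, with adjusted p of 0.633 to 0.996, 0.591 to 0.996, 0.106 to 0.625 and 0.294 to 0.838. PGM1 and PGM2 were below 0 in 3 of 16 alternatives each, after quantile normalization, after normexp with quantile normalization and without control replicate 3. The second probe of PGM3 had an adjusted p of 0.0538 to 0.599 over 7 alternatives.

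The count of called genes was 109, and it was 21 in the methods' t-test, 55 with no filter, 43 with a mean above 50, 239 with normexp and quantile normalization together (141 with quantile normalization alone) and 29 to 219 with 1 array left out. The cause was not tested. With the replicate number as a block it was 117, and the difference of a gene measured on all 6 arrays cannot move under such a block. Deviations of same-numbered arrays correlated at -0.37, 0.48 and 0.19 over 12762 genes. These deviations were taken from each group's own mean, which ties the correlations to one another. The correlations therefore cannot decide whether the numbers pair the samples. With 3 arrays per group the median standard error was 0.10 on the log2 scale, and the 95% intervals of PGM3 and PGM2L1 reached 0.68 and 0.58.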
